A study of Kluyveromyces lactis with 6 samples.

Results

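SIR2, SUM1 and RFM1 encode the deacetylase, the DNA-binding subunit and the linking subunit of a repressor complex, and their transcripts were followed here in the budding yeast Kluyveromyces lactis with and without SIR2. They are 3 of the 5076 genes with a value in the data and were taken by gene identifier: KLLA0F14663g (SIR2), KLLA0C14696g (SUM1) and KLLA0C07062g (RFM1). The study measured RNA in 6 libraries: 2 of sir2Δ isolate 1 (strain LRY2849), 2 of sir2Δ isolate 2 (strain LRY2850) and 2 of WT (strain LRY2835, which carries SIR2). All 3 strains are MATa and lack both silent mating cassettes, HML and HMR, so the WT control carries these deletions too. Cells were grown in YPD, a rich glucose medium, at 30 °C, and each harvest at early log phase held 10 OD. The 2 libraries of a strain are technical replicates by the study's own design text, so WT stands for 1 strain and the deletion for 2 isolates.

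Sir2 removes acetyl groups from histones with NAD+ as its cofactor, and it is best known for silencing the mating cassettes and chromosome ends. In Saccharomyces cerevisiae a gene duplication left a pair of these enzymes: Sir2 works with the Sir proteins, while its paralog Hst1 works with Sum1 and Rfm1. There Sum1 binds a DNA element in front of genes of middle sporulation, and Rfm1 tethers Hst1 to Sum1. K. lactis branched off before that duplication and has a single Sir2, which works with the Sum1 complex as well as at silent loci.

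Values are FPKM, which are fragments divided by gene length and by a library size, and this allows levels of different genes to be set side by side. How the library size was set is not stated in the sources used here. The number of reads is unknown, so no counting interval is given. The summed FPKM ran between 1542500 and 1803540 per library. On log2(FPKM + 1), Pearson's r across genes, which are no independent replicates, was 0.996 to 0.999 within technical pairs. It was 0.990 to 0.993 between the isolates and 0.887 to 0.905 for sir2Δ against WT. Marker genes of both mating types were looked at, and they did not settle the labelled type. HMLALPHA1 and HMLALPHA2, regulators of alpha cells, were listed at 0 in all 6 libraries; the strains lack HML, so these zeros say nothing of the mating type. The a-cell receptor gene STE2 averaged 11.3 FPKM in isolate 1, 12.6 in isolate 2 and 14.1 in WT. STE3, the receptor gene of alpha cells in S. cerevisiae, was also present, at 38.3 FPKM in isolate 1, 46.7 in isolate 2 and 32.6 in WT, and SAG1, the alpha-agglutinin gene, at 14.5, 14.5 and 13.8 FPKM. Of the 5 a-cell genes matched, 3 were higher in sir2Δ, where 20.2% of all tested genes were; the ASG7 call was lost after quantile normalization (change 0.44, adjusted p = 0.191). AGA2, an a-agglutinin subunit, was at 183.5 and 217.9 FPKM in isolates 1 and 2, against 2.99 in WT, BAR1, the alpha-factor protease, at 15.6 and 17.6, against 0.437 in WT, and ASG7 at 11.8 and 10.7, against 5.60 in WT. STE6, the a-factor exporter, was at 14.1 and 14.8 FPKM, against 10.2 in WT, and did not pass, nor did STE2.

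SIR2 transcript was nearly gone in both deletion isolates. It was at 0.0916 and 0.0845 FPKM in the libraries of isolate 1 and at 0.108 and 0.0503 in those of isolate 2, against 66.9 and 64.9 FPKM in WT. All 4 sir2Δ libraries lay far below both WT libraries, and the isolates overlapped each other. The mean was 0.134% of the WT level in isolate 1 and 0.120% in isolate 2, so the genotype labels hold in every library. The fitted change on log2(FPKM + 1), sir2Δ minus WT, was −5.95 (SE 0.35; limma, Benjamini-Hochberg adjusted p = 9.1e-06, two-sided). Of the 5021 genes tested, SIR2 had the lowest change. On this scale the size depends on the added 1, and it was −8.50 with 0.1 added and −3.80 with 5 added.

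The trace left in the deletion strains was close to the smallest amount these libraries record. For a gene, FPKM times coding length scales with the number of reads. This product for SIR2 was 2.82 and 3.06 times the lowest product above 0 of any gene in the libraries of isolate 1. It was 3.80 and 1.90 times that lowest product in the libraries of isolate 2, against 2447 and 1689 times in WT. The estimates are fractional, so these multiples are not read counts.

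SUM1 was higher in both isolates than in WT. SUM1 encodes the subunit that binds DNA. It was at 41.9 and 43.9 FPKM in isolate 1 and at 40.6 and 35.2 in isolate 2, against 27.0 and 27.9 in WT. All 4 sir2Δ libraries lay above both WT libraries, as in 34% of the tested genes (75.3% did not overlap either way), and the lowest of them was isolate 2 replicate 2. The mean over isolates was 1.47 times the WT mean. In a fit of 2 isolates against 1 WT strain the change was 0.54 on the log2 scale (SE 0.17, 95% interval 0.14 to 0.93; limma, adjusted p = 0.0379). In the same fit 40.1% of all tested genes passed, and 20.2% of all tested genes were higher, so a call is common here. Changes at least as high as that of SUM1 were seen in 18.5% of tested genes. With isolate 1 replicate 2 left out the call was lost (change 0.52, adjusted p = 0.0546), as it was with isolate 2 replicate 1 left out (0.49, adjusted p = 0.0673). WT is 1 strain in 1 pair of technical libraries, so strain and genotype cannot be told apart. In bulk RNA, a change in the mix of cells and a change per cell cannot be told apart either.

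**Figure D1:**
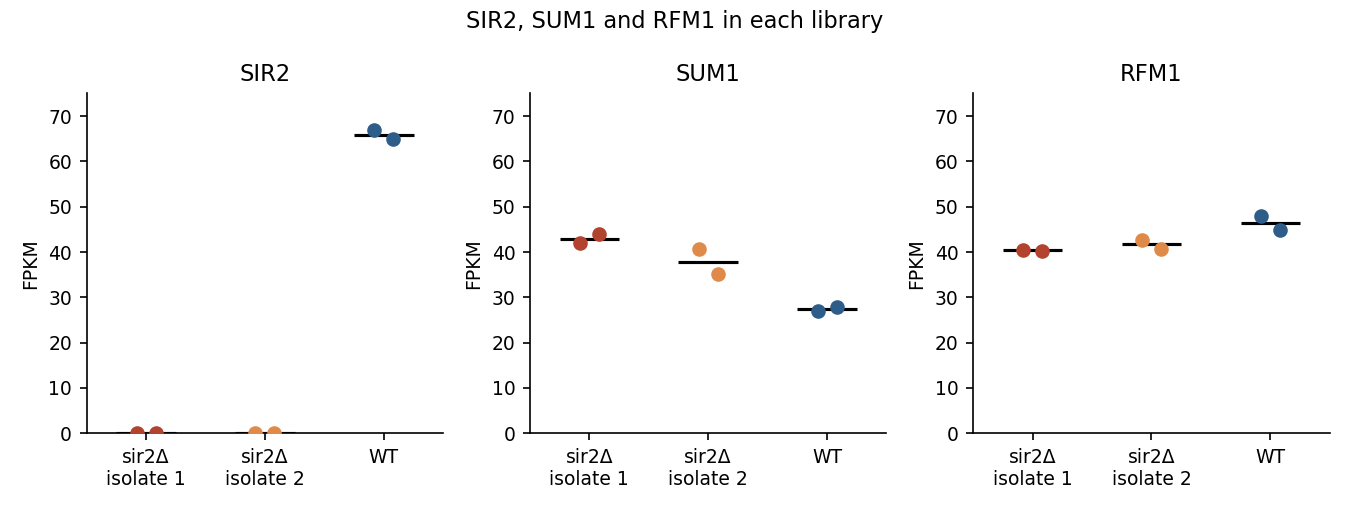
FPKM of SIR2, SUM1 and RFM1 (vertical axes) in sir2Δ isolate 1, sir2Δ isolate 2 and WT; each point is 1 library and each line the mean of the 2 technical libraries of a strain. SIR2 is at most 0.108 FPKM in sir2Δ, the 4 sir2Δ points of SUM1 (35.2 to 43.9) lie above both WT points, and those of RFM1 (40.3 to 42.7) lie slightly below both WT points.

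RFM1 changed little. RFM1 encodes the subunit that links the deacetylase to Sum1 in S. cerevisiae. It was at 40.4 and 40.3 FPKM in isolate 1 and at 42.7 and 40.6 in isolate 2, against 47.9 and 44.8 in WT. All 4 sir2Δ libraries lay below both WT libraries, which was so for 41.4% of tested genes, and the nearest pair of values was 42.7 and 44.8. The mean over isolates was 0.884 times the WT mean. The change was −0.17 on the log2 scale and missed the threshold (SE 0.16, 95% interval −0.54 to 0.19; limma, adjusted p = 0.409). The interval leaves room for a fall of up to 0.54 and for a rise of up to 0.19. In 58.1% of tested genes the change was at least as high as that of RFM1.

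Each isolate was also set against WT in a fit to the 6 libraries, whose p-values are set by technical variation alone. Both contrasts use the same WT libraries, so they are not independent. SUM1 was higher by 0.63 in isolate 1 (SE 0.09, adjusted p = 3.8e-05 in limma) and by 0.45 in isolate 2 (SE 0.09, adjusted p = 0.00067). RFM1 changed by −0.20 in isolate 1 (SE 0.09, adjusted p = 0.0614) and by −0.15 in isolate 2 (SE 0.09, adjusted p = 0.138). For RFM1 in isolate 1 the 95% interval, −0.38 to −0.01, did not include 0, but the adjusted p missed the threshold. It passed once either library of isolate 2 was left out (adjusted p = 0.0446 without replicate 1, 0.0445 without replicate 2). In these fits 67.4% of tested genes passed in isolate 1 (30.8% higher, 36.6% lower) and 71.5% in isolate 2 (32.8% higher, 38.7% lower), and in each of them 1 of the 2 remaining complex genes passed.

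Between the isolates neither gene passed. SUM1 differed by −0.18, isolate 2 minus isolate 1 (95% interval −0.38 to 0.02; limma, adjusted p = 0.217), and RFM1 by 0.05 (95% interval −0.14 to 0.23; adjusted p = 0.758). SIR2 differed by −0.01 (adjusted p = 0.966 in limma). That gene is deleted in both isolates and only a trace was left, so a small difference was given in advance. Of all tested genes, 18.7% (937 genes) passed in this comparison, 7.89% as higher and 10.8% as lower in isolate 2. Leaving out isolate 1 replicate 1 gave 349 such genes, leaving out isolate 2 replicate 1 gave 601 and leaving out isolate 2 replicate 2 gave 232. Technical libraries of SUM1 differed by 0.20 on the log2 scale in isolate 2, replicate 1 minus replicate 2, a difference of the same size as that between isolates. In isolate 1 and in WT the same difference was −0.07 and −0.05.

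**Figure D2:**
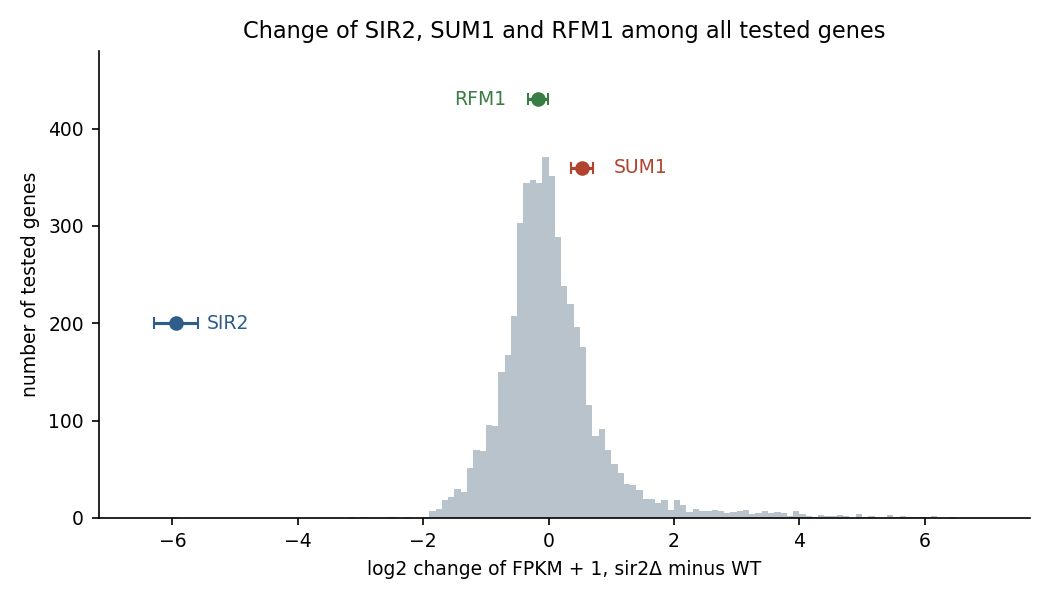
Distribution of the log2 change of FPKM + 1, sir2Δ minus WT, over the 5021 tested genes (grey bars, vertical axis in genes), with SIR2, SUM1 and RFM1 marked as points with their SE; the height of a point has no meaning. SIR2 (−5.95) stands at the far left, while SUM1 (0.54) and RFM1 (−0.17) lie within the bulk of the genes.

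The 3 genes had ordinary levels in WT. SIR2 was the most abundant, at the 54.1 percentile of the 5076 genes. RFM1 was at the 42.7 percentile and SUM1 at the 24.9 percentile. Their WT libraries did not overlap: SIR2 was 2.47 and 2.32 times SUM1 and 1.39 and 1.45 times RFM1 in the same library. Among 54 genes, the 3 complex genes and the 51 silencing and deacetylase genes described below, SIR2 ranked 10 in WT, RFM1 17 and SUM1 34. Next to SIR2 in that order stood HOS2 (67.6 FPKM) and PHO23 (64.9 FPKM), whose WT values overlapped those of SIR2. Below RFM1 stood ESC2 (46.2 FPKM), whose values overlapped those of RFM1, while those of CTI6 above it (53.8 FPKM) did not. SUM1 stood between ORC1 (27.8 FPKM) and HDA3 (27.4 FPKM), and all 3 overlapped.

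Without SIR2, the transcripts of its 2 partners were at nearly equal levels. The ratio of RFM1 to SUM1 was 0.964 and 0.916 in isolate 1 and 1.05 and 1.15 in isolate 2, against 1.77 and 1.60 in WT. The sir2Δ and WT ratios did not overlap, and the ratio was above 1 in isolate 2 and below 1 in isolate 1. Of single tested genes 75.3% did not overlap either way, and the share among gene pairs was not computed. SUM1 stood at the 39.7 percentile in isolate 1 and the 36.4 percentile in isolate 2, against the 24.9 percentile in WT. RFM1 stood at the 38.0 and 39.3 percentiles in isolates 1 and 2, against 42.7 in WT. A ratio is free of the scaling between libraries, and it shows unequal change of the 2 genes without saying which of them changed.

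SUM1 was also set against NDT80, a choice made after the values of NDT80 had been seen. In S. cerevisiae Ndt80 is the activator that competes with Sum1 for the element in front of middle sporulation genes. NDT80 was at 53.8 FPKM in isolate 1 and 74.0 in isolate 2, against 17.7 in WT (change 1.78, SE 0.21; limma, adjusted p = 0.00049). The ratio of NDT80 to SUM1 was 1.16 and 1.34 in isolate 1 and 1.83 and 2.10 in isolate 2, against 0.637 and 0.649 in WT. NDT80 transcript was thus below SUM1 transcript in both WT libraries and above it in all 4 sir2Δ libraries. How many other gene pairs do the same was not computed.

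**Figure D3:**
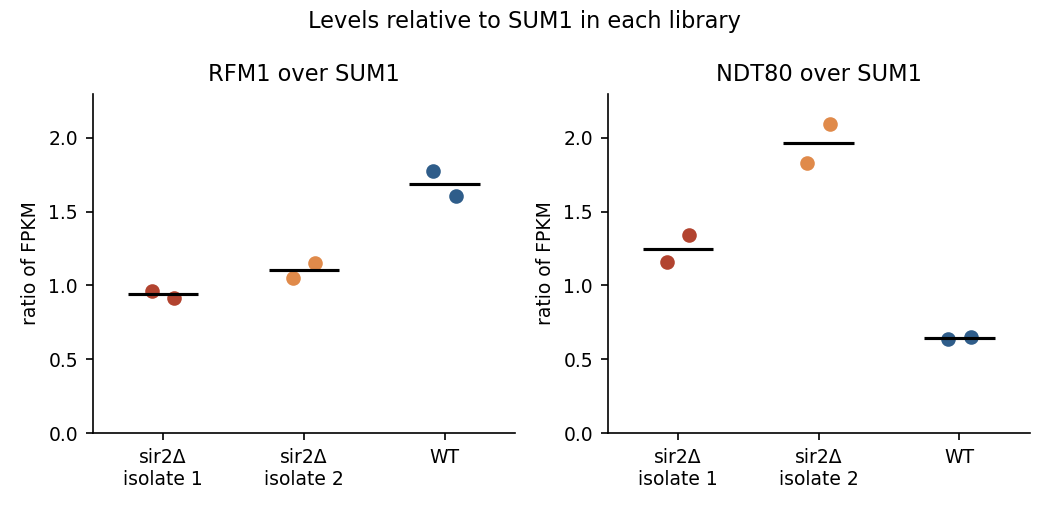
Ratio of FPKM of RFM1 to SUM1 (left) and of NDT80 to SUM1 (right) in sir2Δ isolate 1, sir2Δ isolate 2 and WT; points are libraries and lines their means. RFM1 over SUM1 lies between 0.916 and 1.15 in sir2Δ, below both WT values of 1.77 and 1.60, and NDT80 over SUM1 lies between 1.16 and 2.10 in sir2Δ, above both WT values of 0.637 and 0.649.

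Genes of the class that Sum1 represses in S. cerevisiae were mostly higher in sir2Δ. In the middle sporulation list, which covers the spore wall too, 22 genes were tested: 18 were higher, 0 lower and 4 did not pass, with a median log2 change of 1.92. Over all tested genes 1013 of 5021 were higher and 1000 lower, with a median of −0.06. The list was chosen with earlier results of these data known, so this comparison is a description and no independent support. PFS1, needed for the prospore membrane, was at 93.2 and 110 FPKM in isolates 1 and 2, against 1.07 in WT (change 5.63). SSP2, needed for the spore wall, was at 40.2 and 31.4, against 0.384 in WT (change 4.72). The smallest passing changes were 0.65 for the septin gene SPR28 and 0.62 for the kinase gene SMK1. SPR28 lost its call when replicate 1 of isolate 1 (adjusted p = 0.053) or of isolate 2 (0.125) was left out. NDT80 is on this list too. The binding of Sum1 was not measured. Of the 6 names on a short list of NAD+ synthesis and nicotinic acid uptake genes, which Hst1 represses in S. cerevisiae, only TNA1 could be matched. It encodes the nicotinic acid transporter and was at 902 and 1119 FPKM in isolates 1 and 2, against 223 in WT (change 2.16, SE 0.17; adjusted p = 5.3e-05).

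The other sirtuin genes did not pass. HST2, HST3 and HST4 encode further NAD+-dependent deacetylases, and 0 of the 3 had an unadjusted p under 0.05 in limma, where 40.1% of all tested genes passed even the adjusted threshold. HST3 was at 45.5 and 35.3 FPKM in isolates 1 and 2, against 40.2 in WT, HST4 at 26.4 and 17.9, against 23.4 in WT, and HST2 at 12.9 and 8.72, against 9.81 in WT. In all 3 genes the WT mean lay between the means of the isolates. Their changes were −0.01 for HST3, −0.11 for HST4 and 0.10 for HST2, with adjusted p of 0.98, 0.752 and 0.804 in limma. The sign of the HST2 and HST3 changes turned with the scaling of the libraries. The 95% intervals were −0.45 to 0.44 for HST3, −0.67 to 0.46 for HST4 and −0.55 to 0.75 for HST2. A p that misses the threshold does not show that they were unchanged, and moderate changes either way are within these intervals. Between isolates, HST2 (−0.54), HST3 (−0.36) and HST4 (−0.54) were all lower in isolate 2 than in isolate 1, with adjusted p of 0.0177, 0.0318 and 0.0046 on technical spread. In that comparison 10.8% of tested genes were lower in isolate 2.

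Of 6 matched silencing partners, 1 was higher and 1 lower, 33.3% of them, which is near the 40.1% of all tested genes that passed. YKU80, a subunit of the Ku complex at chromosome ends, was at 31.3 and 35.0 FPKM in isolates 1 and 2, against 22.5 in WT (change 0.54, adjusted p = 0.041 in limma). ESC2, a silencing and genome stability gene, was at 34.7 and 28.9 FPKM, against 46.2 in WT (change −0.53, adjusted p = 0.0451). For YKU80, leaving out isolate 1 replicate 2 (adjusted p = 0.0706) or isolate 2 replicate 1 (0.0947) ended the call. The ESC2 call was lost without WT replicate 2 (0.0504), isolate 1 replicate 2 (0.0835) or isolate 2 replicate 2 (0.0501). RAP1, which encodes the DNA-binding protein that recruits silencing factors, was at 61.6 and 62.1 FPKM, against 60.2 in WT (change 0.04). YKU70 (0.22), ESC1 (0.03) and RIF1 (−0.27) did not pass.

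Of the 6 origin recognition complex genes, 0 had an unadjusted p under 0.05 in limma, against 2503 of the 5021 tested genes. After adjustment 0 passed, where 40.1% of all tested genes passed. This count depends on the settings: after quantile normalization ORC2 passed as lower (change −0.59, adjusted p = 0.0383). With the 6 libraries in 2 genotype groups 3 were lower and 1 higher, and 2 were lower with the replicate block. Those fits count technical libraries as replicates. ORC1, whose product takes part in silencing in K. lactis, was at 21.8 and 19.9 FPKM in isolates 1 and 2, against 27.8 in WT (change −0.41, SE 0.18; limma, adjusted p = 0.111). All 4 sir2Δ libraries of ORC1 lay below both WT libraries, as in 41.4% of tested genes. The other changes were −0.51 for ORC2, −0.26 for ORC5, −0.03 for ORC6, 0.02 for ORC4 and 0.28 for ORC3.

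Over all 6 lists of silencing and deacetylase genes, the share that was lower was near that of all tested genes, and the share higher was smaller. Of 51 matched genes without SIR2, SUM1 and RFM1, 3 were higher (5.88%) and 12 lower (23.5%). Together they were 29.4% of the 51, and the median change was −0.27. Over all tested genes 40.1% passed, 20.2% as higher and 19.9% as lower. The count of 12 fell to 6 without isolate 1 replicate 2, and with median-ratio scaling it was 7. Both of the matched rDNA silencing genes were lower: FOB1, which blocks replication forks in the rDNA (−0.98), and the phosphatase gene CDC14 (−0.49). For CDC14, leaving out replicate 2 of isolate 1 (adjusted p = 0.0643) or of isolate 2 (0.0509) ended the call. Of 11 genes for histone marks and chaperones, 0 were higher and 3 lower. They were ASF1, a histone chaperone, at 77.5 and 86.2 FPKM in isolates 1 and 2, against 236 in WT (−1.52), HIR2 of the HIR chaperone complex (−0.62) and SAS4 of a histone H4 acetyltransferase (−0.54). The SAS4 call needed isolate 1 replicate 2 (adjusted p = 0.0561 when left out).

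In the 23 matched genes of the zinc-dependent deacetylase complexes, 2 were higher (8.70%) and 6 lower (26.1%), against 20.2% and 19.9% of all tested genes. The deacetylase gene HOS1 was at 39.7 and 42.4 FPKM in isolates 1 and 2, against 22.8 in WT (change 0.82, adjusted p = 0.0059 in limma), and ASH1, a repressor of the Rpd3 complex, changed by 0.60. SAP30, another subunit of the Rpd3 complex, was at 99.4 and 110 FPKM, against 204 in WT (−0.96). HDA3, of the Hda1 complex, changed by −0.68. RPD3 itself was at 113 and 98.7 FPKM, against 99.2 in WT. The count of 6 was 3 without isolate 1 replicate 2 and 3 with median-ratio scaling.

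**Figure D4:**
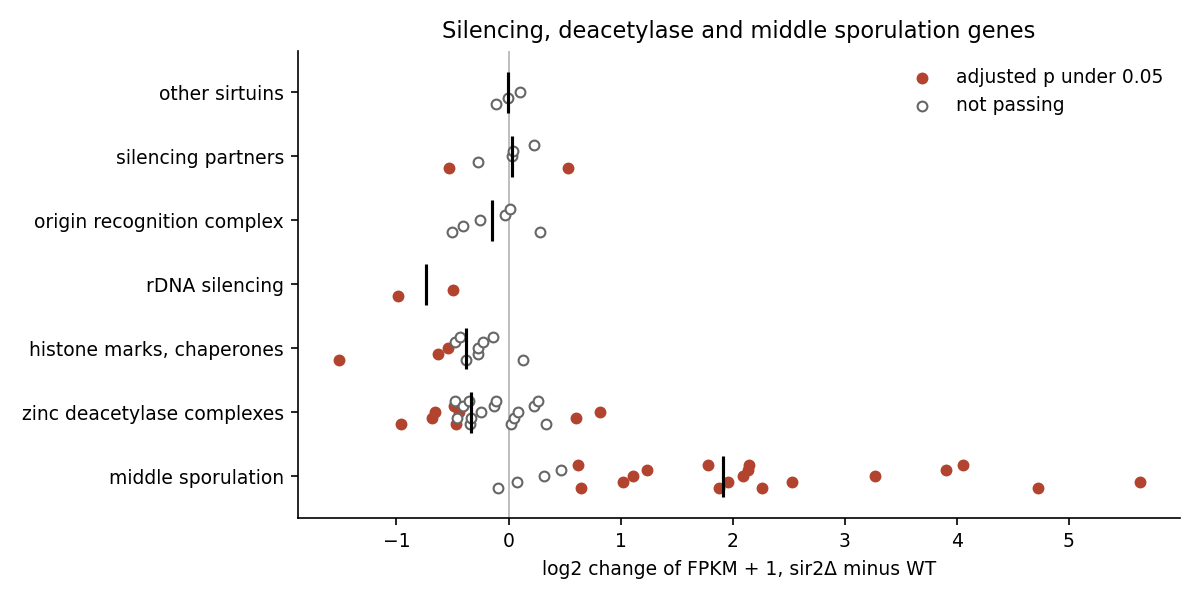
Log2 change of FPKM + 1, sir2Δ minus WT (horizontal axis), of each tested gene in 6 lists of silencing and deacetylase genes and in the middle sporulation list; filled points passed an adjusted p of 0.05 in limma, open points did not, and black lines are list medians. The middle sporulation list lies mostly to the right (median 1.92), while the other sirtuins lie near 0 and the zinc deacetylase complexes have a median of −0.33.

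The nearest gene on each side of SIR2 on chromosome F was higher in sir2Δ. TRS65, of the TRAPP trafficking complex, was at 29.0 and 27.3 FPKM in isolates 1 and 2, against 16.8 in WT (change 0.71, SE 0.18; limma, adjusted p = 0.0157). RTG1, which encodes a transcription factor of mitochondrial retrograde signalling, was at 23.5 and 21.2 FPKM, against 11.9 in WT (change 0.86, SE 0.20; adjusted p = 0.0099). Further out, CLC1 (0.37, adjusted p = 0.0706), PEX35 (0.42, adjusted p = 0.0546), RPT2 (0.14) and PTC1 (−0.28) did not pass. PEX35 passed without WT replicate 2 (adjusted p = 0.04), isolate 1 replicate 1 (0.0489) or isolate 2 replicate 1 (0.0455), with median-ratio scaling (0.0385) and after quantile normalization (0.0148). CLC1 passed with median-ratio scaling (change 0.41, adjusted p = 0.0488). Of the 6 neighbours, 2 were thus higher and 0 lower, where 40.1% of all tested genes passed and 20.2% were higher, so the count is near the background. The library kit keeps no strand, so reads of overlapping or antisense transcripts cannot be told apart in these values.

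Most genes beside SUM1 on chromosome C were lower in sir2Δ, while SUM1 was higher. Of the 3 genes on either side, 4 of 6 were lower and 0 higher, where 19.9% of all tested genes were lower and 20.2% higher. TFB1, a subunit of a transcription and repair factor, changed by −0.67 (adjusted p = 0.02 in limma), and SSZ1, a ribosome-associated chaperone gene, by −0.60 (0.0132). PAN5, of pantothenate synthesis, changed by −0.43 (0.0445) and RPP1, of RNase P, by −0.91 (0.0065). PAN5 lost its call when isolate 1 replicate 2 (adjusted p = 0.154), isolate 2 replicate 1 (0.0502) or isolate 2 replicate 2 (0.0699) was left out. KLLA0C14740g (−0.02) and GIC2 (−0.10) did not pass. Around RFM1, on the same chromosome, 0 of 6 genes had an unadjusted p under 0.05 in limma, against 2503 of the 5021 tested genes. After adjustment 0 of the 6 passed in either direction, where 40.1% of all tested genes passed. The changes of these neighbours ran between −0.15 for KLLA0C07018g and 0.07 for FMP42. ESC1, already described, lies second to the right of RFM1, beyond ERG8 (−0.07).

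**Figure D5:**
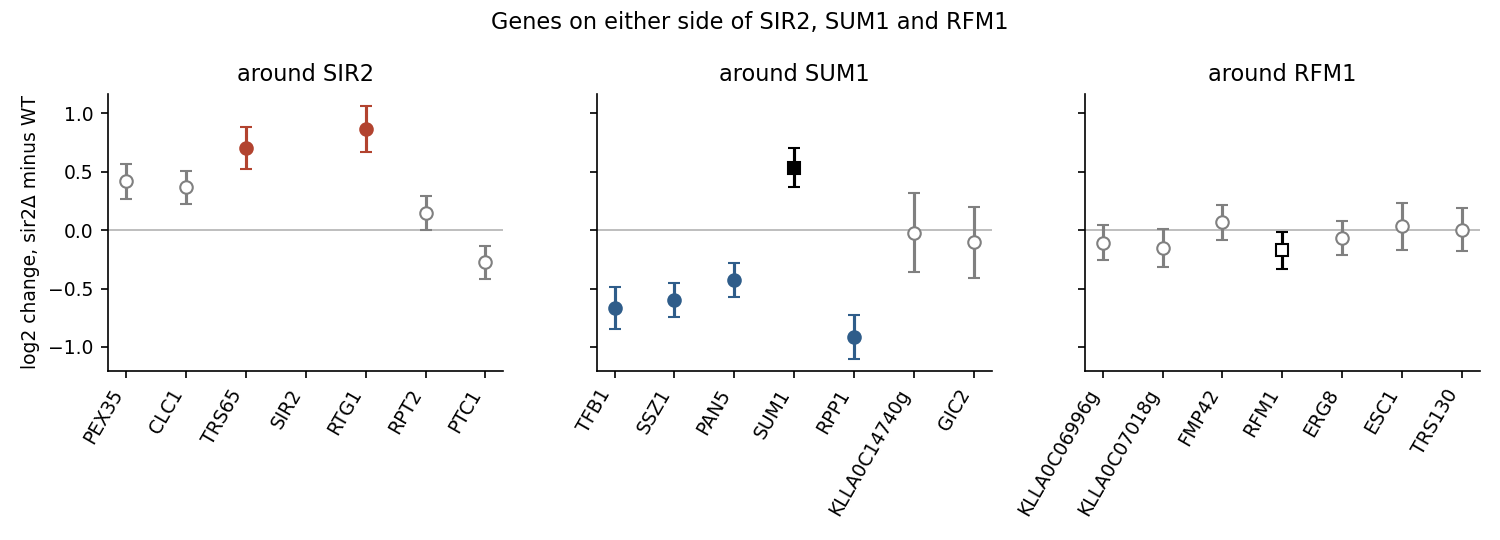
Log2 change of FPKM + 1, sir2Δ minus WT, with its SE (vertical axis) for the 3 annotated genes on each side of SIR2, SUM1 and RFM1 in chromosome order; filled points passed an adjusted p of 0.05 in limma, squares are SUM1 and RFM1, and SIR2 itself (−5.95) is left off. TRS65 and RTG1 beside SIR2 are higher, 4 neighbours of SUM1 are lower, and no neighbour of RFM1 passed.

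The genes most like SUM1 were found by the root mean square distance over the 6 libraries between log2(FPKM + 1) values, each centred on its WT mean. JHD2, a histone demethylase gene, was nearest at a distance of 0.03, followed by KLLA0B13838g and HOB2 at 0.05 each and MSH4 and KLLA0F01188g at 0.06 each. For sir2Δ against WT these genes missed the threshold, with adjusted p from 0.0504 (KLLA0B13838g) to 0.11 (HOB2) in limma. Their changes, from 0.53 (HOB2) to 0.55 (JHD2), were near the 0.54 of SUM1, so the threshold does not set them apart. Of 15 alternatives, KLLA0B13838g passed in 9, JHD2 in 6, HOB2 and MSH4 in 3 each and KLLA0F01188g in 2. SUM1 lost its call in 2. These alternatives include fits that count technical libraries as replicates. JHD2 was at 21.3 and 19.1 FPKM in isolates 1 and 2, against 13.4 in WT. MSH4, of meiotic crossing over, was at 17.4 and 15.9 FPKM, against 11.1 in WT. In all, 35 tested genes lay within 0.1 of SUM1. For RFM1 the nearest were VTA1, SIW14, ANY1, RUP1 and KLLA0E03081g, at 0.03 to 0.04, and 286 genes lay within 0.1. These distances rest on 6 libraries of 3 strains and are a description of likeness only.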

How the data were processed

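RNA was extracted with hot phenol and made into libraries with a TruSeq kit that keeps no strand, then read as 50 bp single ends, per the labels' protocols. The authors deposited 1 FPKM value per gene and library. The submitters' processing notes name the tools TopHat2 2.0.10 and Cuffnorm 2.2.1. For the build, the annotation and the scaling, nothing is given in the sources used here. Gene symbols, coding lengths and gene order came from the RefSeq table of assembly ASM251v1, which held all 5076 identifiers and symbols for 3959. SIR2 has no symbol there and was named by its identifier. No coordinates, promoters or proteins are given, and the planned promoter motif search was not run.

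All tests used log2(FPKM + 1), a scale that shrinks the changes of low genes. Of all genes, 5021 averaged 1 FPKM or more across strains and entered the model, fitted by limma 3.58.1 under R 4.3.3 with a trend on intensity; 55 genes were left out. For sir2Δ against WT, technical libraries were averaged per strain on the log2 scale (1 residual and 7.03 prior degrees of freedom). Single isolates were compared in a fit of 6 libraries in 3 groups (3 residual degrees of freedom). An adjusted p (Benjamini-Hochberg over all tested genes, two-sided) under 0.05 was the threshold.

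The sir2Δ against WT fit was tested on 20 simulated sets of 5021 genes with 200 changed. It recovered 19.4% of changes of 0.5, 86.3% of 1 and 100% of 2 on the log2 scale. Of its calls 5.94% were false. In the data 40.1% of tested genes passed, far more than were changed in the sets, so these shares may not carry over. The simulated spread of the WT strain was taken from that between the isolates, as WT is 1 strain. The members and lists were chosen with earlier results of these data known. Of 117 list names, 83 matched a symbol; the rest were left out. Named are the 3 members, 3 neighbours on each side, the 5 genes most like SUM1 and RFM1, the markers and, from each list, all passing genes or, above 6, the 2 highest and 2 lowest. All members of the sirtuin, silencing partner and origin lists are named too. NDT80, RPD3, HOS2, PHO23 and CTI6 are named outside this rule, after their values were seen. Alternatives changed the pseudocount, filter, scaling, trend, libraries and block.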

Additional observations from a re-analysis of the deposited data

Results flagged for a closer look

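In the 4 sir2Δ libraries, the highest value stood apart from the others by more than Dixon's limit for RFM1 (42.7 FPKM, isolate 2 replicate 1), HOS1 (44.6 FPKM, isolate 2 replicate 2), PEX35 (126 FPKM, isolate 2 replicate 2) and TRS130 (22.2 FPKM, isolate 1 replicate 1). Chance flags about 1 in 20 groups, and these 4 libraries are 2 technical pairs.

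For 10 named genes the isolates differed, isolate 2 minus isolate 1 on the log2 scale in the limma fit of 6 libraries. In that comparison 18.7% of all tested genes passed, so such a difference is common here. The difference was −0.72 for FOB1, −0.86 for GIC2, −0.54 for HST2, −0.36 for HST3, −0.54 for HST4, −0.81 for ORC6 and −0.45 for RIF1. It was 0.55 for KLLA0C14740g, 0.46 for NDT80 and 0.31 for TNA1. These tests rest on technical spread. SIR2, SUM1 and RFM1 were not among them.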

How the results depend on the processing

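SIR2 and RFM1 kept their direction and side of the threshold for sir2Δ against WT in all 15 alternatives, and SUM1 in 13. Leaving out 1 library gave −5.97 to −5.93 for SIR2, 0.49 to 0.59 for SUM1 (adjusted p 0.0233 to 0.0673) and −0.22 to −0.12 for RFM1. Single isolates against WT held, except RFM1 in isolate 1, which passed after quantile normalization (−0.20, adjusted p = 0.0485); leaving out 1 library gave −0.24 to −0.15. SIR2 between isolates ran from −0.051 to 0.026 and changed sign without isolate 2 replicate 2. The causes were not tested.

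The fits of 6 libraries in 2 genotype groups, which are among the alternatives above, count technical libraries as independent replicates. Their p-values and counts thus overstate the replication. In them SUM1 had an adjusted p of 0.0033 in limma with the replicate block and 0.0013 without it. Called genes then numbered 3118 with the block and 3217 without, against 2013, and lower genes 1675 and 1740, against 1000. The lower silencing and deacetylase genes numbered 23 and 25, against 12, and the higher ones 4 and 5, against 3. With median-ratio scaling 7 were lower, and leaving out 1 library gave 6 to 13 lower and 2 to 3 higher. Same-numbered libraries deviated together at r of 0.01 (isolate 1 and WT), 0.05 (isolate 2 and WT) and 0.21 (between isolates). Only the value between isolates was over the limit of 0.1, so the libraries were not treated as pairs across all strains. Whether same-numbered libraries of the isolates share a batch is not known. In the fit of 3 strain groups the block changed no call of the 3 genes. Between isolates, leaving out 1 library gave 71 to 461 genes higher and 161 to 465 lower, against 396 and 541.

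Changes near 0 turned sign. After quantile normalization they were −0.0041 for ESC1, −0.15 for HST2, 0.025 for HST3 and −0.012 for SAG1. With median-ratio scaling they were 0.039 for HST3, 0.020 for KLLA0C14740g and 0.0054 for ORC6. Leaving out 1 library gave −0.031 to 0.093 for ESC1, −0.014 to 0.21 for HST2, −0.069 to 0.054 for HST3, −0.17 to 0.13 for KLLA0C14740g, −0.050 to 0.081 for ORC4, −0.12 to 0.049 for ORC6 and −0.041 to 0.049 for TRS130. The calls of CDC14, ESC2 and PAN5 were also lost with median-ratio scaling and without the intensity trend, that of ESC2 without the filter, and that of SPR28 after quantile normalization. With the 6 libraries in 2 genotype groups, CLC1, PEX35, PTC1, STE3, STE6, ORC1 and ORC2 passed with and without the block. So did the genes most like SUM1, which are JHD2, KLLA0B13838g, HOB2, MSH4 and KLLA0F01188g. In these fits technical libraries count as replicates. No read depth is known, so low values such as SIR2 in sir2Δ carry no counting error.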
